A study of Mus musculus with 4 samples.

Results

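Map1b, Map2 and Mapt encode the neuronal microtubule-associated proteins MAP1B, MAP2 and tau. Their transcripts were followed here in a map of the RNA contacts of IMP2 in the embryonic mouse brain. IMP2, the product of Igf2bp2, belongs to the IGF2BP proteins, which bind mRNA. The genes were chosen by name. All entries under Mtap1b, Mtap2 (the older symbols of Map1b and Map2) and Mapt were taken from the deposited list and reduced to distinct clusters, which are stretches of transcript where sequenced fragments overlap. This gave 39 clusters of the 1828 in the list, 25 in Map1b, 12 in Map2 and 2 in Mapt. The list names 761 genes in all, and its median gene has 1 cluster.

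Brains came from E14 embryos of Swiss Webster mice, with no treatment and no genetic change named in the labels. In HITS-CLIP, ultraviolet light joins proteins to the RNA they touch, the protein is immunoprecipitated and the RNA fragments left on it are sequenced. Here the tissue was irradiated 3 times with 300 mJ/cm2 at 254 nm, the RNA was cut with benzonase to fragments of about 40 nt, and IMP2 was pulled down with antibodies raised in mouse and in rabbit. Of the 4 libraries, 2 are titled with R and 2 with M, letters that the labels do not explain. A single list of clusters stands for all of them, so no value below carries a replicate error, and nothing was tested between libraries. The labels say that brain tissue was partially dissociated, with no selection of a cell type. Of 10 neuronal markers 5 had clusters (Dcx, Elavl3, Gap43, Nefl and Stmn2). Of the 21900 protein-coding genes, expressed in the brain or not, 3.47% did. The counts were 0 of 5 for microglia, 0 of 5 for oligodendrocytes, 0 of 4 for astrocytes and 0 of 4 for endothelium, and lists this short would hold few or no clusters at the share of all genes. Among markers of other cells, 1 of 7 for neural progenitors (Vim), 1 of 4 for red blood cells (Hbb-y) and 1 of 2 for choroid plexus (Ttr) had clusters.

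Microtubules are the tracks and struts of the growing neuron. MAP1B is abundant in extending axons, MAP2 marks cell bodies and dendrites in mature neurons, and tau is enriched in axons. MAP2 and tau are related proteins that hold the microtubule with a shared kind of repeat near the carboxyl end, while MAP1B belongs to another family and is made as a precursor that is cleaved into a heavy and a light chain. The transcripts of MAP2 and tau are known to be carried into dendrites and axons through sequences in their 3′ UTRs, the part of an mRNA after the stop codon.

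The number of IMP2 clusters and their height fell in the order Map1b, Map2, Mapt, although the 3′ UTRs of the 3 genes were of similar length. The height of a cluster is the pileup value of the deposited list, taken as the number of fragments that overlap at its peak. The tallest cluster reached 90 in Map1b, 64 in Map2 and 20 in Mapt, against a median of 31 for the tallest cluster of the 761 listed genes. These heights ranked 9, 41 and 696 among those genes, with ties sharing the better rank. Per length, the 3′ UTR held 4.15 clusters per kb in Map1b, 3.36 in Map2 and 0.512 in Mapt, and the median over the 729 genes with a 3′ UTR cluster was 0.861 per kb. The share of 3′ UTR bases under a cluster was 75.1% in Map1b, 26.1% in Map2 and 2.59% in Mapt, against a median of 4.70% over those genes. On this measure Map1b followed only Rtn1 (78.4%) and Ctnnb1 (78.2%), whose 3′ UTRs are far shorter at 783 and 990 bases against 4342 in Map1b. Neither the abundance of the transcripts nor a control immunoprecipitation was analysed here, so binding per transcript was not measured, and the part of transcript abundance in this order was not tested.

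In Map1b, a gene of the minus strand, the 3′ UTR lies on chromosome 13 at 100191419 to 100195760 (mm9) and held 18 clusters. Counted from the stop codon, the first cluster had a height of 64 and the next one the maximum of 90. The following 5 clusters had heights of 29, 47, 45, 27 and 84. Then came 5 clusters of 49, 49, 73, 68 and 65. The tall cluster of 87 followed, and the last 5 had heights of 56, 35, 50, 53 and 67. Tall clusters thus lay near the stop codon, in the interior and near the 3′ end. Before the midpoint of the 3′ UTR, 10 clusters reached up to 90 with a median height of 49, and beyond it 8 reached up to 87 with a median of 60.5. Over the whole list the median height was 30, and 16 of the 18 exceeded it.

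The clusters of the Map1b 3′ UTR lay close together. The median gap between neighbours was 47 bases, and only 2 gaps exceeded 100 bases, with lengths of 201 and 238. When gaps of up to 100 bases, a limit chosen after the data were seen, were bridged, these gaps separated a first stretch of 357 bases with 2 clusters, another of 836 bases with 5 and a last one of 2736 bases with 11. The first stretch began 39 bases upstream of the 3′ UTR interval and ended 318 bases into it. Its first cluster, at 100195718 to 100195799, therefore ran across the start of the 3′ UTR, with 43 of its 82 bases inside. The deposited list names it only as 3′ UTR. In no line of the list did the named region cover less than 51.9% of the cluster, so a smaller overlap with a neighbouring region would not appear.

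Clusters of Map1b were also wide. Their median width in the 3′ UTR was 131 bases against 53 over the list, 12 of the 18 were wider than 100 bases and 8 wider than 200. The cluster of height 87 spanned 533 bases, from 100192555 to 100193087, and only a cluster of Marcks (588 bases) was wider in the list. Wide clusters tended to be tall ones, with a Spearman correlation of width and height of 0.61 over the 18 clusters, against 0.53 over all 1828. These clusters share libraries and, within Map1b, 1 transcript, so the correlations are descriptions across sites.

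**Figure D1:**
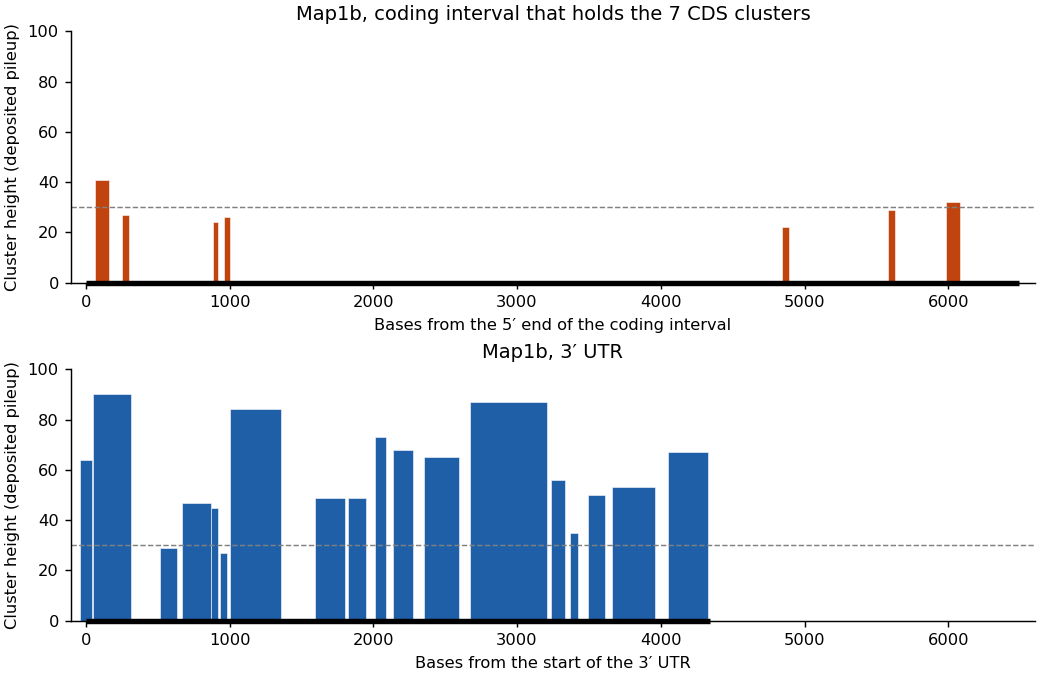
Deposited height of each Map1b cluster (bar height) over its position and width (bar width), in bases from the 5′ end of the coding interval that holds all 7 CDS clusters (top, orange) and from the start of the 3′ UTR (bottom, blue). The black line is the extent of each interval, and the dashed line is the median height of the list, 30. Clusters of 27 to 90 are spread almost from end to end of the 3′ UTR and cover 75.1% of its bases. The coding interval has 4 clusters near its 5′ end, 3 towards its 3′ end and none between.

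The coding sequence (CDS) of Map1b carried 7 further clusters, and all lay in a single interval of 6490 bases on chromosome 13 at 100199167 to 100205656. In the direction of the transcript their heights were 41, 27, 24 and 26 near the 5′ end of the interval and 22, 29 and 32 towards its 3′ end. The first 4 lay within bases 67 to 1004 of the interval and the other 3 within bases 4845 to 6084. The 3841 bases between the groups held no cluster. The tallest of the 7, at 100205494 to 100205589, had a height of 41 and a width of 96 bases. Clusters covered 6.39% of the coding interval, at 1.08 per kb. Coding intervals without a cluster do not appear in the list, so the density over the whole CDS of Map1b was not computed.

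CDS clusters of Map1b were lower and narrower than those of its 3′ UTR, with some overlap. The CDS heights had a lowest value of 22, a median of 27 and a highest of 41, and the 3′ UTR heights 27, 54.5 and 90. Thus 15 of the 18 3′ UTR clusters stood above every CDS cluster, and 3 of the 7 CDS clusters stood above the lowest 3′ UTR cluster. The median in the 3′ UTR was 2.02 times that in the CDS. Median widths were 131 and 45 bases. The 3′ UTR also had 3.84 times as many clusters per kb as the coding interval and 11.7 times the covered share. Clusters of 1 transcript are not replicates, so these differences were not tested.

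The same order of heights was common among genes bound in both regions. Of 38 genes with clusters in the CDS and in the 3′ UTR, the median CDS height was below the median 3′ UTR height in 28, equal in 1 and above it in 9. Over the whole list, the 99 CDS clusters had a median height of 26 (range 18 to 48) and the 1721 3′ UTR clusters one of 30 (range 18 to 107). The CDS clusters of Map1b, with a median of 27, were thus close to other CDS clusters, while its 3′ UTR clusters, with a median of 54.5, were taller than most of their region.

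CDS clusters made up a larger share in Map1b than in the list. They were 7 of its 25 clusters (28%, exact Clopper-Pearson 95% interval 12.1 to 49.4, counting error only), against 5.42% of all clusters in the list and 5.10% without Map1b. These 7 were 7.07% of all CDS clusters. Of the 68 genes with a CDS cluster, 30 had CDS clusters only. The median of the 68 genes was 1 CDS cluster, and only Map1b and the translation initiation factor gene Eif4g2 had 7. Since the genes were proposed with earlier results of these data known, this count was not tested. The interval also counts clusters of 1 transcript as separate draws, although many of them lie close together. The share moved with the limits on clusters. Among clusters taller than the median height, 2 of 18 in Map1b lay in the CDS (11.1%), against 3.38% of the 857 such clusters in the list. With a fold of at least 3 it was again 2 of 18, against 4.94% of 1720. When clusters at most 100 bases apart were joined, Map1b had 5 stretches in the CDS and 3 in the 3′ UTR (62.5% in the CDS), against 6.40% of 1406 in the list.

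The genes most like Map1b by number of CDS clusters, beside 3′ UTR clusters, were Eif4g2 (7), Tubb5 (4), Kmt2e (4), Pcbp2 (3) and Polr2m (3). Of all their clusters, the CDS held 7 of 11 in Eif4g2, 4 of 13 in Tubb5 and 4 of 6 in Kmt2e. It held 3 of 5 in Pcbp2 and 3 of 4 in Polr2m. Each of these shares was larger than the 7 of 25 in Map1b. A large CDS share was thus not particular to Map1b. In Eif4g2 the median height was 35 in the CDS and 56 in the 3′ UTR, an order like that of Map1b. In Tubb5, a beta-tubulin gene, the medians were close, at 30 and 32. Pcbp2, a poly(C)-binding protein gene, had 25 and 29. In the chromatin gene Kmt2e the CDS median was the higher one, at 31 against 26, as in Polr2m, a gene of an RNA polymerase II subunit, at 30 against 25. By number of clusters in all, Map1b stood with Dcx (34), Fzd3 (27), Sox11 (25), Ccnd2 (17) and Xpr1, Kif5c and Tubb5, which tied at 13. Of these, Fzd3, a Frizzled receptor gene, had 2 CDS clusters, with heights of 19 and 38, Tubb5 had the 4 already given, and the other 5 had 0. Of 23 genes with at least 10 clusters, 7 had a cluster in the CDS, and both counts include Map1b.

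Map2, a gene of the plus strand, had all of its 12 clusters in the 3′ UTR, on chromosome 1 at 66485582 to 66489157 (3576 bases, shared by the 2 listed transcripts). From the stop codon onwards, the first 6 had heights of 60, 43, 24, 21, 43 and 31, and the last 6 had heights of 64, 34, 33, 20, 32 and 44. The highest cluster of 64, at 66486983 to 66487053, lay 1401 bases after the start of the 3′ UTR, and the one of 60, at 66485741 to 66485826, lay 159 bases after it. Before the midpoint of the 3′ UTR, 7 clusters had a median height of 43, and beyond it 5 had one of 33. Of the 12 clusters, 9 were taller than the list's median height (75.0%, exact Clopper-Pearson 95% interval 42.8 to 94.5), against 46.9% of all clusters. In Map1b it was 18 of 25 (72.0%, 50.6 to 87.9), and in Mapt 0 of 2. Both intervals count clusters of 1 transcript as separate draws.

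Map2 clusters lay farther apart than those of the Map1b 3′ UTR. Their median width was 78.5 bases (range 32 to 127), and the median gap was 142 bases. The 6 clusters nearest the stop codon lay within the first 1058 bases, with gaps of 68 to 149 bases. The 4 gaps that followed were 343, 387, 503 and 457 bases long. The last 2 clusters again lay within 142 bases of their neighbours. Joining at up to 50 bases left all 12 apart, while the same rule took the 18 of the Map1b 3′ UTR to 9 pieces of 115 to 836 bases. Joining at up to 100 bases left 9 pieces in Map2, the longest of 406 bases, and 3 in the Map1b 3′ UTR, of 357 to 2736 bases. With 0 of 12 clusters in the CDS, an exact Clopper-Pearson interval allowed a CDS share of up to 26.5%, which includes the list's 5.42%. The interval counts clusters of 1 transcript as separate draws, and the CDS shares of Map2 and Map1b were not tested against each other.

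Mapt, the tau gene on the plus strand, had 2 low clusters, both beyond the midpoint of its 3′ UTR on chromosome 11 at 104189502 to 104193407 (3906 bases, shared by the 2 listed transcripts). The cluster at 104191761 to 104191812 had a height of 20 and a fold of 2.36, and the one at 104192954 to 104193002 a height of 20 and a fold of 2.73. The first 2259 bases after the stop codon had no cluster, and 1141 bases separated the pair. Both stood close to the lowest values in the list, a height of 18 and a fold of 2. Only 8.64% of all clusters had a height of 20 or less. Weaker contacts in Mapt would not appear in the list. Neither Mapt cluster was taller than the median height or had a fold of at least 3, so the gene leaves the list under either limit.

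**Figure D2:**
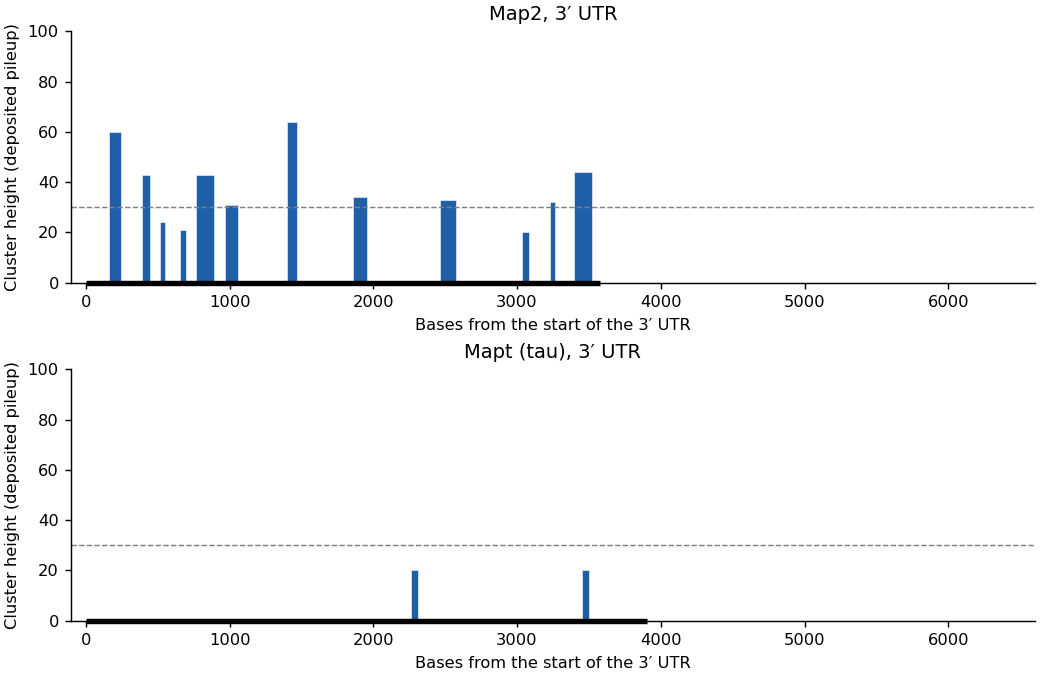
Deposited height of each cluster (bar height) over its position and width (bar width) in the 3′ UTR of Map2 (top) and Mapt (bottom), in bases from the start of the 3′ UTR and on the same axes as the plot for Map1b. The black line is the extent of the 3′ UTR, and the dashed line is the median height of the list, 30. Map2 has 12 separate clusters of 20 to 64 along the 3′ UTR, and Mapt has 2 clusters of 20 beyond the midpoint.

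Genes with 3′ UTRs of similar length give a closer reference, a window chosen after the values were seen. Of the listed genes, 164 had a 3′ UTR of 3000 to 5000 bases. Their median was 2 clusters in the 3′ UTR, 2.19% of bases covered and a highest cluster of 31. Map1b had the most 3′ UTR clusters of these genes (18), followed by the cyclin gene Ccnd2 (17) and the kinesin gene Kif5c (13). Map2, with 12, shared the fourth place with Cxadr, Ncam1 and Tcf4. Mapt, with 2, stood at the median. In covered share Map1b stood at place 1, Map2 at place 5 and Mapt at place 75.

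**Figure D3:**
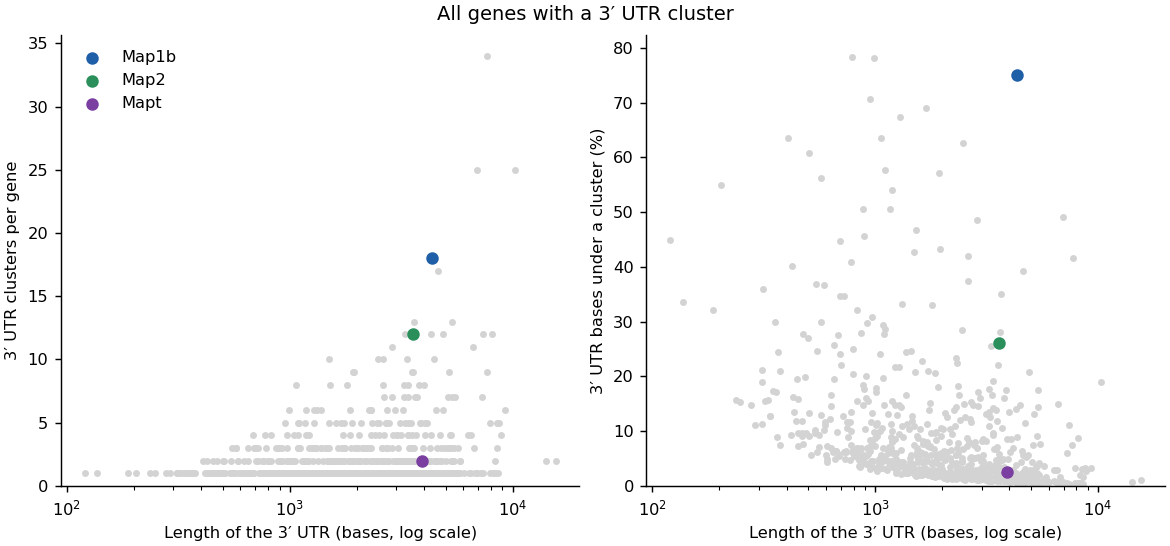
Number of 3′ UTR clusters (left) and share of 3′ UTR bases under a cluster in percent (right) against the length of the 3′ UTR (log scale) for the 729 genes with a 3′ UTR cluster (grey), with the 3 genes in colour. Map1b (18 clusters, 75.1%) lies above all other genes with 3′ UTRs of 3000 to 5000 bases, Map2 (12, 26.1%) lies high, and Mapt (2, 2.59%) lies among most genes.

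Beside the height, the list gives a fold of the height for each cluster. The reference level of this ratio is not defined in the header. In Map1b the lowest, median and highest folds were 2.56, 5.73 and 8.34 in the 3′ UTR and 2.32, 2.58 and 3.95 in the CDS, so the 3′ UTR median was 2.22 times that of the CDS. The medians of the list were 5.45 for 3′ UTR clusters and 4.75 for CDS clusters. Map1b 3′ UTR clusters, with a median height of 54.5 against 30, were thus near its median in fold, and Map1b CDS clusters, near the list in height, were below it in fold. In Map2 the lowest, median and highest folds were 2.32, 4.10 and 7.59.

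Height divided by fold was taken as the level that each height was set against, which the header does not define. Its median was 10.3 in the CDS and 10.2 in the 3′ UTR of Map1b, 8.18 in Map2 and 7.90 in Mapt, against 5.96 over all clusters. All 25 Map1b clusters were above that median, and by its median the gene ranked 5 of 761. Levels of at least 10 were reached by 65 clusters in 11 genes, of which 18 were in Map1b. Of the 7 Map1b CDS clusters, 5 had a fold below 3, as had 14.1% of CDS clusters and 5.29% of 3′ UTR clusters in the list. The 2 above it were those of height 41 and 32.

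**Figure D4:**
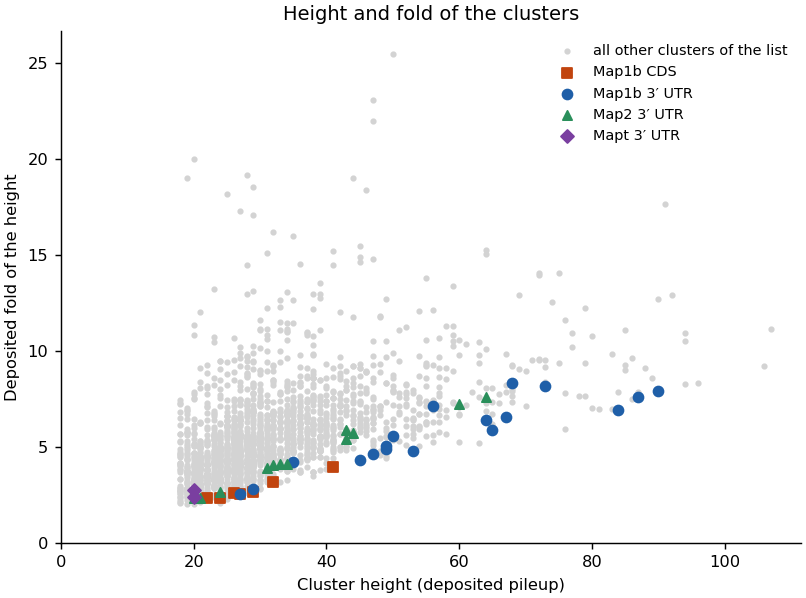
Deposited fold of the height against cluster height for Map1b in the CDS (orange squares), Map1b in the 3′ UTR (blue circles), Map2 (green triangles) and Mapt (purple diamonds). All other clusters of the list are in grey. The clusters of the 3 genes lie in the lower part of the cloud, where a given height goes with a smaller fold. Map1b folds run from 2.32 to 8.34 over heights of 22 to 90.

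Other proteins that bind along microtubules were listed beside these genes. Of 23 structural microtubule-associated proteins, 7 had clusters (30.4%, exact Clopper-Pearson 95% interval 13.2 to 52.9), against 3.47% of the 21900 protein-coding genes. These 7 include the 3 genes described here, and all 23 were chosen with results known, so the count is no independent evidence. The 21900 genes were not limited to those expressed in the brain. At least 2 clusters were held by 7 of the 23, against 1.56% of protein-coding genes, and a cluster taller than the median height by 6, against 1.87%. The others were Dcx, encoding doublecortin of migrating neurons (34 clusters, highest 85), its relative Dclk1 (3, highest 44), Map6, encoding the microtubule-stabilising protein STOP (2, highest 44), and Camsap2, encoding a protein of microtubule minus ends (2, highest 42). None of these 4 had a CDS cluster. Map1a, Map1s and Map4, relatives of Map1b and Map2, were not listed.

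Enzymes that phosphorylate or dephosphorylate these proteins had clusters in 5 of 19 genes (26.3%, exact Clopper-Pearson 95% interval 9.15 to 51.2), against the same 3.47% of protein-coding genes, expressed in the brain or not. The gene lists in this paragraph were also chosen with earlier results of these data known. Their counts and intervals are therefore no independent evidence. Gsk3b, encoding a kinase of tau and MAP1B, had 8 clusters, of which 1 lay in the CDS, with a highest value of 39. Ppp2ca, encoding a catalytic subunit of the phosphatase PP2A, had 4 (highest 40). The kinase genes Dyrk1a (2, highest 31) and Mapk8 (1, height 26) followed, and Ppp2cb had 1 of height 19. Of 16 plus-end proteins, 6 were listed (37.5%, interval 15.2 to 64.6), led by the microtubule-anchoring genes Clasp1 (highest 54) and Apc (highest 43), with Clasp2 and Macf1 at 27. Stmn2, encoding a stathmin that destabilises microtubules, reached 85 with 6 clusters, and the severing enzyme gene Spast 35 with 5. They were the 2 listed members of 11 destabilising and severing genes (18.2%, interval 2.28 to 51.8). Of 13 tubulin genes, Tubb5 (13 clusters, highest 59), Tuba1a (3, highest 40) and Tubb2b (1, in the CDS, height 28) were listed (23.1%, interval 5.04 to 53.8). Map1b thus had the highest cluster of all listed genes in these 5 groups, and Dcx the most clusters.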

How the data were processed

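The members and gene lists were chosen with earlier results of these data known. The authors deposited 1 list of clusters with RefSeq transcripts. The submitters' processing notes name Bowtie, FastQC and mm9 but no version. How clusters were called, with which limits and whether over pooled libraries, is not stated in those notes, the labels or the header. Heights are deposited as a pileup signal, and per the file headers the other value is a fold, a ratio of that height. The deposited overlap width equals the overlap of cluster and region in all 2865 lines. No column belongs to a single library, and depth in tags is unknown. PCR duplicates could not be checked.

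Lines were reduced to distinct clusters by chromosome, start, end and strand. A cluster took the deposited region with the widest overlap. Starts were made 1-based. Transcripts were matched to a GRCm38 RefSeq table, used for names only, by accession (1088) or name (11). Clopper-Pearson intervals cover counting error only. Functions were tested on simulated data (Python 3.11.15, pandas 2.3.3, SciPy 1.17.1). No test across genes or clusters was run. Genes were named by rule: the 3 members, 5 others with most CDS clusters in genes with both regions, 5 with most clusters, and up to 4 members of each list by height. Genes outside it (Rtn1, Ctnnb1, Marcks, Kif5c, Cxadr, Ncam1, Tcf4, Ppp2cb and unlisted relatives) were chosen after their values were seen. Alternatives joined clusters, kept taller ones, used fold for height or the midpoint for the region. Joining at 20 or 100 bases and a fold of at least 3 were added after seeing the data.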

Additional observations from a re-analysis of the deposited data

How the results depend on the processing

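Joining clusters at gaps of up to 50 and 100 bases took Map1b from 25 clusters to 15 and 8, and its share in the CDS to 62.5% at 100 bases, because its 3′ UTR clusters merged. With clusters taller than the median height, or a fold of at least 3, the CDS share of Map1b was 11.1% and Mapt had 0 clusters, so that its covered share was 0% with the taller ones. The kinase and phosphatase list fell from 5 genes to 3 with at least 2 clusters and to 3 with a cluster taller than the median height. The plus-end list fell from 6 to 3 and 2 in these settings. Over all protein-coding genes the listed share fell from 3.47% to 1.56% and 1.87%. The other values stayed within 1.5 times or within the interval of the share, including the ratio of the Map1b medians (2.02 to 3). The shortest deposited 3′ UTR is the longest one in each of the 3 genes. No paired analysis was possible because no column belongs to a single library, and leaving out libraries was not run for the same reason.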
